A study of Rattus norvegicus with 3 samples.

Results

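Transcripts of 7 subunits of the GABA-A receptor were followed in the rat cerebellar cortex after occlusion of the right middle cerebral artery. The 7 genes were Gabra6 and Gabrd, which mark granule cells, and Gabra2, Gabra3, Gabrb1, Gabrb2 and Gabrg1. They were chosen by name, through the accession that each array probe carries, and are 7 of the 38973 genes measured. A gene is called detected here where the scanner software set each of its probes well above background on every array, as it did for the 7 members and for 22085 genes in all. Male Wistar rats aged 9 weeks had transient middle cerebral artery occlusion (MCAO) on the right or sham surgery, and tissue was taken 2 days later. The contralateral group was the left cerebellar cortex of MCAO rats, the ipsilateral group was the right cerebellar cortex of the same rats, and the control group was the left cerebellar cortex of sham-operated rats. Tissue of 4 rats was combined in each group and its RNA hybridised to 1 array, so there are no replicates, differences were not tested, and every comparison is one of pooled tissue. MCAO rats had been kept only within a set range of neurological scores, and the right side of sham-operated rats was not measured, so the ipsilateral comparison also sets right against left.

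GABA-A receptors are chloride channels opened by the inhibitory transmitter GABA, and each is assembled from several subunits. Alpha and beta subunits form the binding site for GABA, a gamma subunit takes most receptors to synapses, and a delta subunit makes receptors that lie outside synapses and respond to low ambient GABA. In the cerebellar cortex the alpha6 subunit (Gabra6) is almost restricted to granule cells, where part of it assembles with delta (Gabrd) into the receptors of tonic inhibition. Granule cells receive mossy fibres, among them those that carry input of the opposite cerebral cortex by way of the pons. The question was whether the subunits of granule cells and the other subunits differed between the side opposite the infarct, the side of the infarct and the control.

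The promoters of 3 members are shown because the results turn on them: Gabra6 and Gabrd as the granule cell subunits, and Gabra3 as the one member past the threshold in any comparison. Each window runs from 250 bases before to 50 bases after the gene start in the RefSeq promoter table of the GRCr8 assembly, in which 14 of the 19 GABA-A subunit genes with a probe were found. The windows lie at chr10:27327185-27327484 on the minus strand, chr5:171252660-171252959 on the minus strand and chrX:155543821-155544120 on the minus strand, and are written 5′ to 3′ along the gene. Capitals mark matches to the half-site of nuclear factor I (TTGGC or its reverse complement GCCAA) and to an E-box bound by Neurod1 and Atoh1 (CAGATG or CATCTG).
Gabra6: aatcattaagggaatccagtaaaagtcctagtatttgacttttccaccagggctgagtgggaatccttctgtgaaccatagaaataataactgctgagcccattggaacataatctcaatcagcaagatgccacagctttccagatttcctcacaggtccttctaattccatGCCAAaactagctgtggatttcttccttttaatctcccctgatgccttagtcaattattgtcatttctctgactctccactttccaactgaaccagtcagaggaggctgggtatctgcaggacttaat
Gabrd: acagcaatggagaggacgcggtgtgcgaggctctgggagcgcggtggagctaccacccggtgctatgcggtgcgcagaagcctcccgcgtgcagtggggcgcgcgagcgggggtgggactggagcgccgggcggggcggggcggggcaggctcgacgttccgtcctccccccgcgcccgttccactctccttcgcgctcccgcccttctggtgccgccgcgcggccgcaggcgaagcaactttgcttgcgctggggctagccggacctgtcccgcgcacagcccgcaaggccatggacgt
Gabra3: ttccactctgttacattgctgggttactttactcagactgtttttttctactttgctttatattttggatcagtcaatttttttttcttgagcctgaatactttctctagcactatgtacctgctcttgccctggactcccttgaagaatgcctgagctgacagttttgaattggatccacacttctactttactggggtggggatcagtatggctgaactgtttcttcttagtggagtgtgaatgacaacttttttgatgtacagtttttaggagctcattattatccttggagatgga
The Gabra6 window held 1 nuclear factor I half-site, which 45.8% of all 27457 promoters hold, and neither the Gabrd nor the Gabra3 window held one. None of the 3 held the E-box, which 16.3% of all promoters hold. The GC box (GGGCGG or CCGCCC, in 34.9% of promoters) occurred 4 times in the Gabrd window and in neither other window. The letters of the TATA box (TATAAA or TTTATA, in 14.3% of promoters) occurred once in the Gabra3 window and in neither other window. That match was the reverse complement, TTTATA, and its distance from the gene start was not considered. The motifs were searched on both strands and overlapping matches were counted separately. Base composition set the granule cell subunits apart from each other: G and C made up 42.3% of the Gabra6 window and 73.7% of the Gabrd window, against a median of 52.3% over all promoters, and 39.3% of the Gabra3 window. A match is a string of letters and not a measured binding site.

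Both granule cell subunits were measured far from background on all 3 arrays. Values are scaled log2 signals, that is log2 fluorescence intensity after the arrays were shifted to a common 75th percentile, and each carries a scanner error of the software that reads the spots, which covers neither rats nor hybridisations. Gabra6 had a signal of 13.14 on the contralateral, 13.22 on the ipsilateral and 12.99 on the control array, each ± 0.14. Its log2 ratio to control was thus 0.15 ± 0.20 contralaterally and 0.23 ± 0.20 ipsilaterally, and 3 pools of such similar signal cannot be ordered beyond the scanner error, apart from the ipsilateral pool above control. Gabrd had a signal of 14.39 on the contralateral, 14.38 on the ipsilateral and 14.16 on the control array, each ± 0.14. Its log2 ratio to control was 0.23 ± 0.20 contralaterally and 0.22 ± 0.20 ipsilaterally, so that both MCAO pools lay above control by slightly more than the scanner error and differed from each other by 0.01. Under 6 of the 11 other ways of processing neither Gabrd ratio, nor the ipsilateral one of Gabra6, was above 0 by more than the scanner error. Apart from that of Gabrd contralaterally, which was above 0 under all 11 (0.08 without scaling), these directions rest on the scaling. Without scaling, which moves the median log2 ratio of all genes from 0.04 to -0.11 contralaterally and from 0.13 to -0.40 ipsilaterally, the Gabra6 ratio was -0.00 contralaterally and both were below 0 ipsilaterally (-0.31 for each). The contralateral pool was then above the ipsilateral one beyond the scanner error, by 0.30 for Gabra6 and 0.39 for Gabrd. Scaling to spike-in RNA, which moves the ipsilateral median to -0.12, left ipsilateral ratios of -0.02 for Gabra6 and -0.03 for Gabrd. In pooled tissue, fewer cells of a type and less RNA per cell cannot be told apart.

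**Figure D1:**
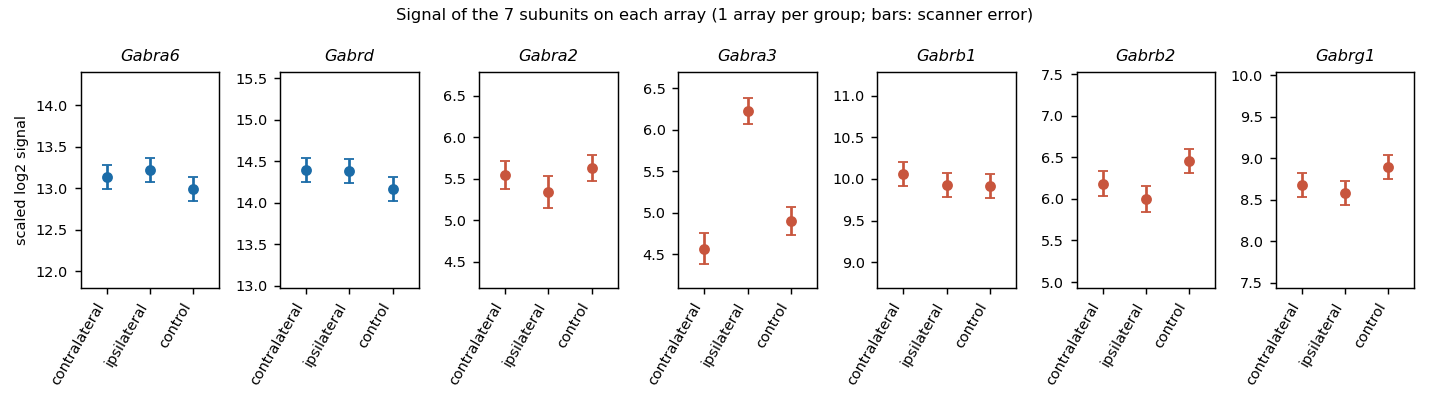
Scaled log2 signal (vertical axis, 1 panel and 1 own range of equal height per gene) of the 7 members on the contralateral, ipsilateral and control arrays (horizontal axis). Points are the single array of each group and bars the scanner error. The 3 arrays span 0.23 for Gabra6 and 0.23 for Gabrd (both blue), whereas Gabra3 reaches 6.22 on the ipsilateral array against 4.56 and 4.90 on the others.

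Among the remaining alpha subunits, Gabra2 stayed within the threshold. It encodes a synaptic subunit that in the cerebellum is also known from Bergmann glia, and its signal was 5.54 on the contralateral, 5.34 on the ipsilateral and 5.63 on the control array. The log2 ratio to control was -0.09 ± 0.23 contralaterally and -0.29 ± 0.25 ipsilaterally. Of the 7 genes it alone had several probes, and these 3 gave -0.14, 0.03 and -0.15 contralaterally and -0.25, -0.52 and -0.11 ipsilaterally, so they disagreed in sign on the contralateral side. The ipsilateral ratio was within the scanner error with normexp (-0.14), 50 added (-0.13) and the brightest probe (-0.11). Beta subunits divided. Gabrb1 had a signal of 10.06 on the contralateral, 9.93 on the ipsilateral and 9.91 on the control array. Its ratios to control were 0.15 ± 0.20 and 0.02 ± 0.20, and as reported its 3 pools did not differ beyond the scanner error. The ipsilateral ratio was below 0 beyond that error without scaling (-0.52) and with spike-in scaling (-0.24). The contralateral pool was then above the ipsilateral one by 0.52 and 0.31, also beyond the error. Gabrb2, which granule cells and Purkinje cells both express, had a signal of 6.18 on the contralateral, 6.002 on the ipsilateral and 6.46 on the control array. Its ratio to control was -0.27 ± 0.21 contralaterally and -0.45 ± 0.22 ipsilaterally, below 0 by more than the scanner error on both sides and below 0 under each of the 11 other ways of processing, but contralaterally within that error with normexp (-0.12) and with 50 added (-0.17). Gabrg1, a gamma subunit of glial cells in the cerebellum, had a signal of 8.67 on the contralateral, 8.58 on the ipsilateral and 8.90 on the control array. Its ratio to control was -0.22 ± 0.20 contralaterally and -0.32 ± 0.20 ipsilaterally, also below 0 under each of the 11 other ways of processing, but contralaterally within the scanner error with median scaling (-0.19), normexp (-0.17) and 50 added (-0.20). For both Gabrb2 and Gabrg1 the control pool was the highest. Their ratios to control lay inside the spread of detected genes of like signal, within 0.5, a small share at either end left out. For Gabrb2 that spread was -0.77 to 0.95 contralaterally and -0.81 to 1.10 ipsilaterally. For Gabrg1 it was -0.45 to 0.48 and -0.53 to 0.55. As reported, the MCAO pools of the 2 sides differed by less than the scanner error for both genes. The contralateral pool was above the ipsilateral one by more than that error without scaling (0.56 for Gabrb2, 0.48 for Gabrg1). With spike-in scaling it was so too (0.35 and 0.27). For Gabrb2 this also held with quantile (0.25) and cyclic loess scaling (0.26).

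Gabra3 was the one member that passed the threshold of the methods, a log2 ratio above 1 or below -1. It encodes the alpha3 subunit, found in the cerebellum mainly in Golgi cells. Its signal was 4.56 ± 0.19 on the contralateral, 6.22 ± 0.15 on the ipsilateral and 4.90 ± 0.17 on the control array. The ipsilateral pool was above control by 1.33 ± 0.23 on the log2 scale, a 2.51-fold ratio, and the contralateral pool was below control, at -0.33 ± 0.25. Between the sides the log2 ratio of contralateral to ipsilateral was -1.66 ± 0.24, and it was within the threshold at -0.52 with normexp and -0.76 with 50 added to the signal. These values come from 1 probe in 1 dim spot, whose median intensity was 65 on the contralateral, 92 on the ipsilateral and 75 on the control array, over local backgrounds of 32, 30 and 28. The spot was well above background on each array, and the 24 spots up to 2 rows and columns away had median ratios of -0.03 contralaterally and 0.05 ipsilaterally. Without scaling the ipsilateral ratio was 0.79, with 50 added to the signal it was 0.64, and with normexp background correction followed by quantile normalization it was 0.42, so the threshold was passed or not depending on scaling and on the treatment of dim signal, while the sign was kept under all 11 other ways of processing. The contralateral ratio was within its scanner error at -0.25 with quantile normalization, -0.12 with 50 added and -0.10 with normexp.

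Read against all genes, the count of members past the threshold was 0 of 7 for contralateral to control, where 11.2% of all genes and 2.26% of the 22085 detected genes were past it. For ipsilateral to control it was 1 of 7, where the shares were 16.5% and 3.89%, and 3.1% of detected genes were above 1. For contralateral to ipsilateral it was 1 of 7, where the shares were 15.2% and 1.76%, and 1.54% of detected genes were below -1. Dim genes passed more often: of the 2795 detected genes with a mean signal within 0.5 of that of Gabra3, 219 (7.84%) had an ipsilateral ratio above 1. The count of 1 member is therefore no more than a description of Gabra3.

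The granule cell subunits stood above the others on the contralateral side. The mean log2 ratio to control was 0.19 for Gabra6 and Gabrd and -0.15 for the 5 others, a difference of 0.34 ± 0.17 that did not exceed the scanner error with normexp (0.17) or with Gabrb2 moved to the granule cell group (0.16). All 5 others had a lower ratio than both granule cell subunits, although Gabrb1 and Gabra6 were both at 0.15 and cannot be told apart. Gabrb1 was above Gabra6 with quantile (0.15 against 0.08) and cyclic loess scaling (0.15 against 0.10). With normexp it was above both granule cell subunits (0.17 against 0.09 for Gabra6 and 0.16 for Gabrd). On the ipsilateral side the means were 0.22 and 0.06, a difference of 0.17 ± 0.17 that does not exceed the scanner error. The reported ipsilateral value rests on Gabra3: 4 of the 5 others lay below both granule cell subunits, the median of the 5 was -0.29, and without Gabra3 the difference was 0.49. Without Gabra2, Gabrb2 or Gabrg1 it was 0.08, 0.04 and 0.08. Between the sides, contralateral to ipsilateral, the difference was 0.17 ± 0.18, and without Gabra3 it was -0.19, so the order of the groups turned with that 1 gene. The difference between the sides exceeded the scanner error with the brightest probe (0.22). It also did without Gabra6 (0.22), Gabra2 (0.28), Gabrb1 (0.26), Gabrb2 (0.27) or Gabrg1 (0.25). The comparisons with control share the control array and both MCAO pools share their rats, so they are not independent of each other.

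**Figure D2:**
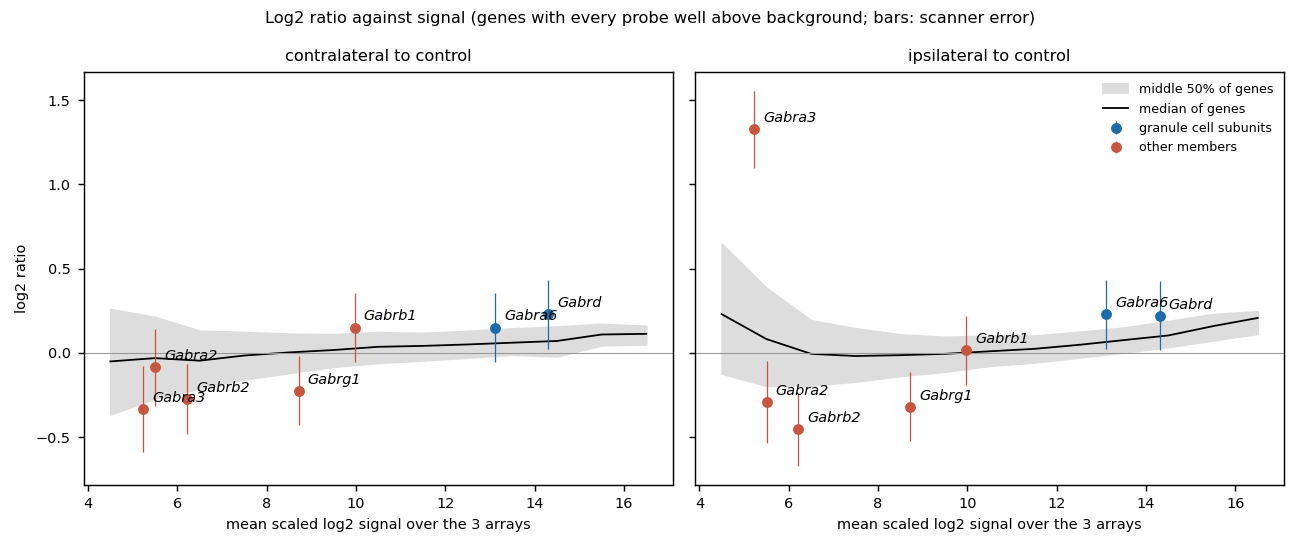
Log2 ratio to control (vertical axis) against the mean scaled log2 signal over the 3 arrays (horizontal axis) for the 7 members, with scanner error as bars. The line and the band are the median and the middle 50% of all detected genes in steps of 1 on the signal axis; the median rises from -0.05 to 0.11 contralaterally.

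On the contralateral side, ratios of all genes changed with signal in the same direction as this contrast, whereas ipsilaterally they had no single direction. Among detected genes the median contralateral ratio was -0.05 at signals of 4 to 5 (2605 genes) and 0.11 at 16 to 17 (55 genes). Ipsilaterally it was 0.23 at 4 to 5, -0.02 at 7 to 8 and 0.21 at 16 to 17. Genes of like signal, within 0.5, had a median contralateral ratio of 0.06 for both Gabra6 (793 genes) and Gabrd (382 genes), -0.04 for Gabrb2 and 0.01 for Gabrg1. With the median of genes of like signal subtracted from each member, the difference between granule cell subunits and others was 0.27 contralaterally, 0.13 ipsilaterally and 0.15 between the sides. Cyclic loess, which evens out ratios along the signal axis, gave 0.24, 0.12 and 0.12. The contralateral difference thus kept its sign and lost part of its size, and the part of signal in what remains was not tested. Moving Gabrb2, which granule cells also express, to the granule cell group gave 0.16 contralaterally and -0.18 ipsilaterally, so the ipsilateral sign also rests on where this gene is placed. Between the sides the same move gave 0.34, which exceeds the scanner error.

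**Figure D3:**
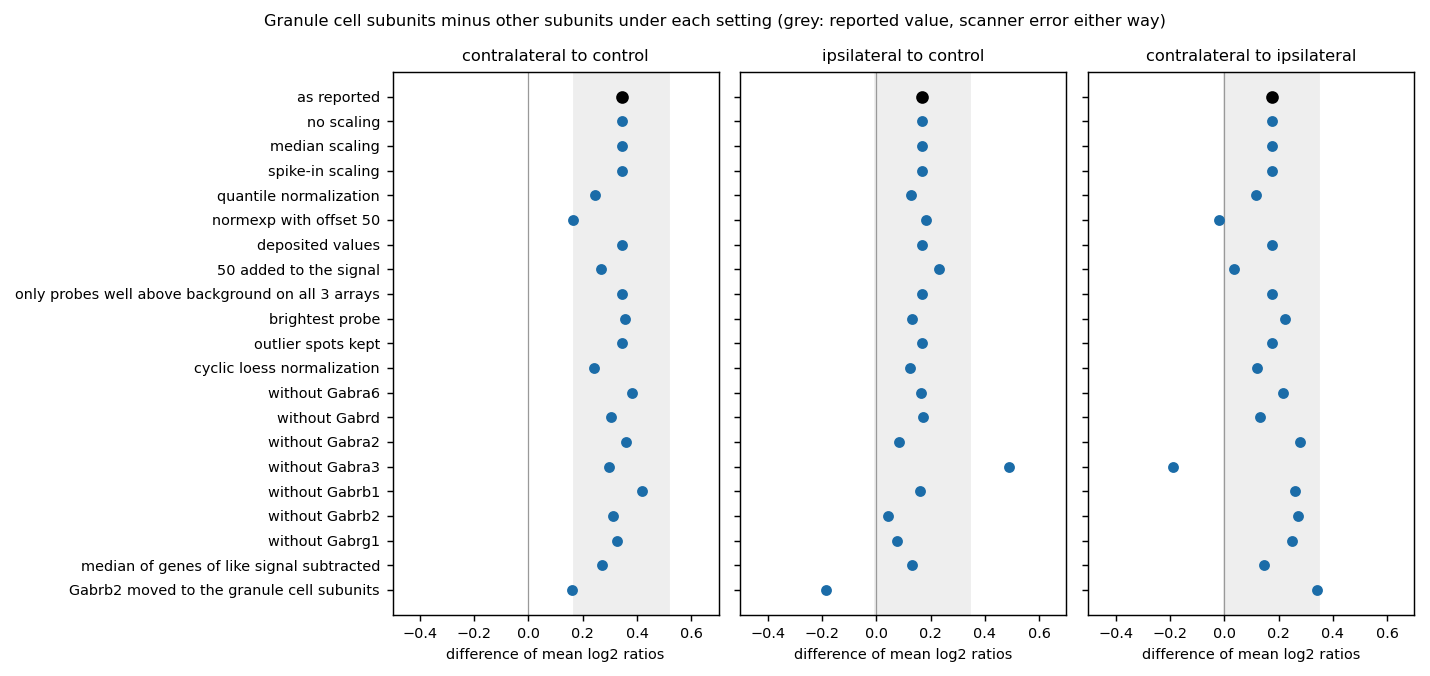
Difference of the mean log2 ratio of Gabra6 and Gabrd minus that of the 5 other members (horizontal axis) for each comparison (panels), as reported (black) and under each other way of processing or choice of members (blue, 1 row each). The grey band is the reported value with the scanner error either way. Contralaterally the values run from 0.16 to 0.42, ipsilaterally from -0.18 to 0.49 and between the sides from -0.19 to 0.34.

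Subunits outside the 7 members include Gabra4, an alpha subunit that can pair with delta, and Gabrq, the theta subunit. Gabra4 had a signal of 6.01 on the contralateral, 5.88 on the ipsilateral and 6.14 on the control array. Its log2 ratio to control was -0.13 ± 0.22 contralaterally and -0.26 ± 0.22 ipsilaterally, below 0 under each of the 11 other ways of processing. As reported, only the ipsilateral ratio was beyond the scanner error. It was within that error with 50 added (-0.15), and the contralateral ratio was beyond it without scaling (-0.28). Gabrq had a signal of 9.34 on the contralateral, 9.30 on the ipsilateral and 9.47 on the control array, with ratios of -0.13 ± 0.20 and -0.17 ± 0.20 that did not exceed the scanner error. Without scaling both exceeded it, at -0.28 contralaterally and -0.70 ipsilaterally. Gabra5, Gabrg3, Gabre, Gabrp, Gabrr1 and Gabrr2 were not well above background on any array. Gabrr3 was well above background on the control array only, where it was at least 1.15-fold higher than on the contralateral array, as set by the dimmest signal well above background there.

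**Figure D4:**
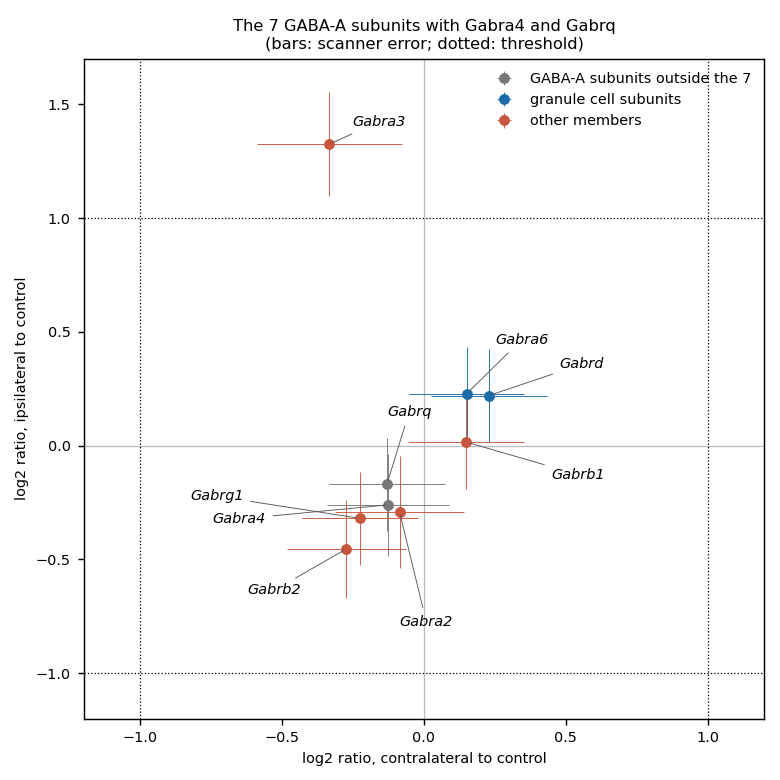
Log2 ratio to control on the contralateral (horizontal axis) and ipsilateral side (vertical axis) for the 7 members with Gabra4 and Gabrq, with scanner error as bars and the threshold as dotted lines; both axes share the control array. Gabra6, Gabrd and Gabrb1 lie above 0 on both axes, but below 0 on the ipsilateral axis without scaling and with spike-in scaling, and Gabra3 alone lies above 1, on the ipsilateral axis.

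Several subunit genes lie next to each other, and their ratios were alike in some cases and apart in others. In the RefSeq annotation Gabra6 and Gabrb2 are neighbours on chromosome 10 with 0 protein-coding genes between them. Their contralateral ratios were 0.15 and -0.27, and their ipsilateral ratios 0.23 and -0.45, where that of Gabra6 is below 0 without scaling and with spike-in scaling. On chromosome 14 the row is Gabrb1, Gabra4, Gabra2 and Gabrg1. Here Gabra4, Gabra2 and Gabrg1 were all below 0, at -0.13, -0.09 and -0.22 contralaterally and -0.26, -0.29 and -0.32 ipsilaterally, although Gabra2 was at 0.01 contralaterally with normexp. Gabrb1 stood apart from them at 0.15 and 0.02, values that are below 0 without scaling. On chromosome X, Gabra3 stands between Gabre, not well above background, and Gabrq, at -0.17 ipsilaterally beside 1.33 for Gabra3. Gabrd, on chromosome 5, has no subunit gene next to it.

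The genes around the receptor made 6 lists of 32 genes, 31 of them detected, with 0 past the threshold contralaterally and 1 ipsilaterally, beside 2.26% and 3.89% of all detected genes. GABA synthesis and breakdown (4 genes) had a median ratio of 0.08 contralaterally and 0.03 ipsilaterally. Abat, which breaks GABA down, was highest contralaterally at 0.17 ± 0.20 and stood at 0.40 ± 0.20 ipsilaterally, and Gad2, which makes GABA, was lowest contralaterally at 0.01 and stood at -0.04 ipsilaterally. GABA transporters (5 genes) had medians of 0.21 and 0.04, from Slc6a12 at 0.35 ± 0.22 to Slc6a13 at -0.43 ± 0.20 contralaterally, and these genes were at 0.26 and -0.24 ipsilaterally. On the contralateral side this was the list with most ratios beyond the scanner error, 4 of 5, in both directions. Slc32a1, chosen after its value was seen, was barely so, at 0.207 ± 0.206. Ipsilaterally 3 of 5 were beyond it, against 4 of 15 anchoring and trafficking genes. The share of all detected genes beyond that error is not given here, so these counts only describe the lists. The GABA-B receptor subunits Gabbr1 and Gabbr2 were at 0.04 and 0.03 contralaterally and -0.00 and -0.14 ipsilaterally. The chloride cotransporters, which set whether GABA receptors let chloride in or out, were contralaterally at 0.07 ± 0.20 for Slc12a2 and -0.18 ± 0.21 for Slc12a5, and ipsilaterally at -0.03 ± 0.20 and -0.21 ± 0.21, where that of Slc12a5 slightly exceeded the scanner error. Anchoring and trafficking genes (15 genes) had medians of -0.02 and 0.03, with Gabarapl1 highest contralaterally at 0.23 ± 0.20 and at 0.23 ipsilaterally. Lhfpl4, which holds receptors at inhibitory synapses, was lowest contralaterally at -0.31 ± 0.30 and stood at 0.56 ± 0.28 ipsilaterally, at a signal of 4.27 on the contralateral, 5.14 on the ipsilateral and 4.59 on the control array.

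Glra2, a subunit of the glycine receptor, the other inhibitory chloride channel, was the gene past the threshold, and 1 such gene in 31 is close to the share over all detected genes. Its signal was 11.85 on the contralateral, 12.23 on the ipsilateral and 11.09 on the control array, so that both MCAO pools were above control. The log2 ratio was 0.76 ± 0.20 contralaterally and 1.15 ± 0.20 ipsilaterally (2.21-fold), and it was above 0 under each of the 11 other ways of processing, although the ipsilateral ratio was within the threshold without scaling (0.61) and with spike-in scaling (0.89). Each of its 2 probes gave the same order, with 0.87 and 0.66 contralaterally and 1.27 and 1.02 ipsilaterally. The other detected glycine receptor subunits did not share this: Glrb was at -0.09 and -0.11, and Glra1, chosen after its value was seen, at -0.00 and 0.04. Glra3 was not well above background on any array, so its ratios cannot be read. With a median of -0.00 contralaterally and 0.04 ipsilaterally over its 3 detected genes, the list as a whole was near all genes.

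**Figure D5:**
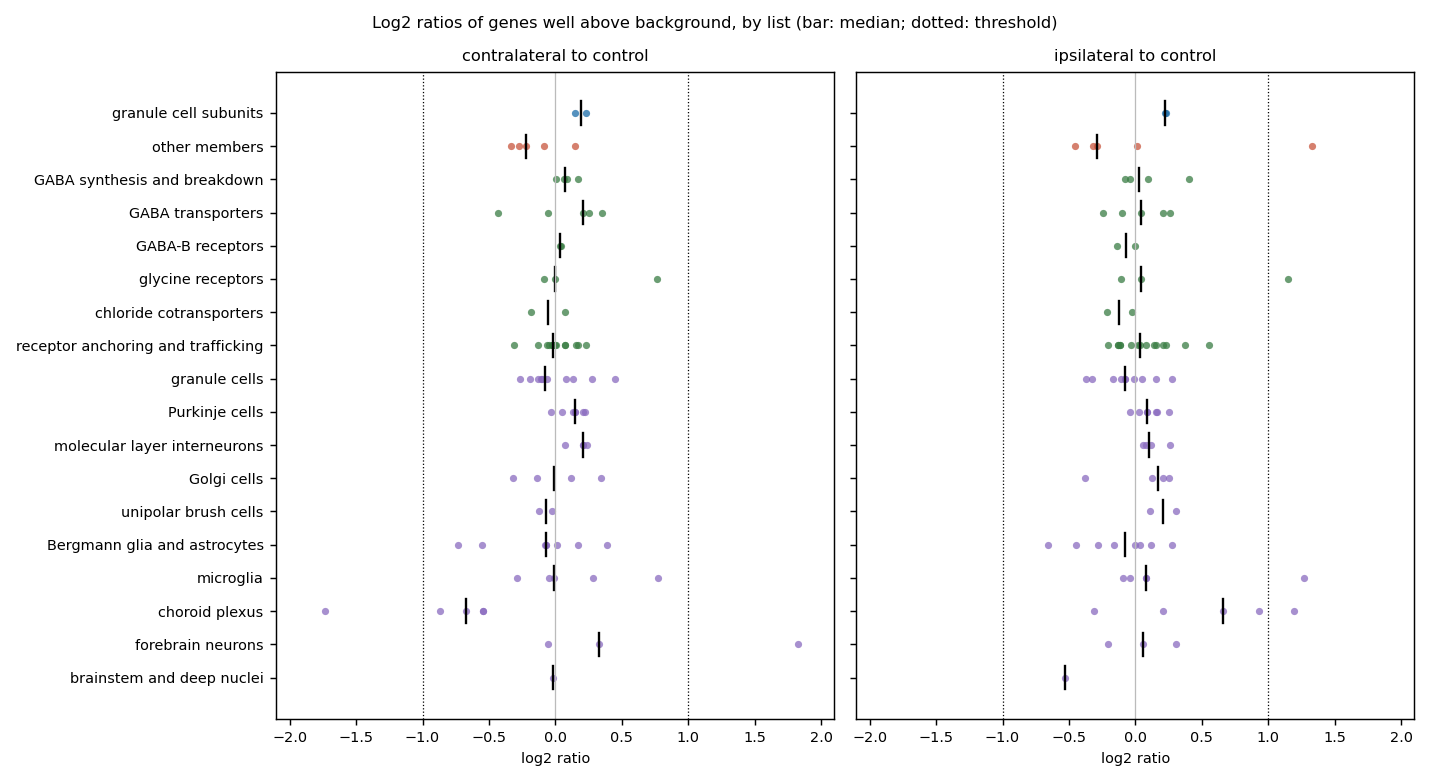
Log2 ratios to control (horizontal axis) of the detected genes in each list (vertical axis), contralaterally (left panel) and ipsilaterally (right panel). Points are genes, black bars list medians and dotted lines the threshold. The choroid plexus list has a median of -0.67 contralaterally and 0.66 ipsilaterally, and the granule cell marker list stays near 0.

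Marker genes of the labelled tissue were present. All 10 granule cell markers and all 7 Purkinje cell markers matched to a probe were detected, and Tbr1, which defines forebrain neurons, was not well above background on any array. The scalings that shift an array move each list median as they move the median of all genes, so small list medians above 0 are below 0 without scaling. Other granule cell markers ran both ways, from -0.26 (Grin2c) to 0.45 (Zic2) contralaterally and from -0.37 (Grin2c) to 0.28 (Zic2) ipsilaterally, genes chosen after their values were seen. Their median ratio was -0.08 on both sides, 4 of 10 were above 0 contralaterally and 3 of 10 ipsilaterally, and Cbln1, the brightest, was at -0.10 and -0.08. Summed over the list, the scaled signal was 111780 contralaterally, 108099 ipsilaterally and 115138 in control. Purkinje cell markers had medians of 0.14 and 0.09 (6 of 7 above 0 on each side, Itpr1 brightest at 0.22 and 0.16), with summed signals of 183143, 180881 and 167455. Molecular layer interneurons had medians of 0.21 and 0.10 (4 of 4 above 0 on each side, Pvalb brightest at 0.21 and 0.26), with summed signals of 44946, 46343 and 38944. The sums were 116988, 117392 and 110822 for Purkinje cells without Itpr1. For interneurons without Pvalb they were 2077, 1942 and 1811. In both lists control stayed lowest, but the order of the MCAO pools rests on the brightest gene. The medians of both lists were above those of the granule cell markers, and the part of cell composition in the subunit ratios was not tested.

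Glial markers are set beside Gabra2 and Gabrg1. The 8 markers of Bergmann glia and astrocytes had medians of -0.07 and -0.08, with 5 of 8 below 0 on each side. Aqp4, the brightest on the control array, was at -0.55 ± 0.20 and -0.45 ± 0.20. On the MCAO arrays the signal of S100b was above that of Aqp4 (14.86 against 14.70 contralaterally, 14.81 against 14.80 ipsilaterally). The list ran both ways: Gfap was lowest at -0.73 and -0.66, and Gdf10 was highest at 0.39 and 0.27, both chosen after their values were seen. Summed signals were 74016 contralaterally, 74674 ipsilaterally and 82215 in control, but without Aqp4 they were 47400.3, 46094 and 43189, so the order of the pools rests on that 1 gene. The part of glia in the Gabrg1 ratio was not tested. Microglial markers (5 genes) had medians of -0.01 and 0.08, and Cx3cr1, the brightest, was at 0.78 ± 0.20 and 1.27 ± 0.20 (0.74 ipsilaterally without scaling), with summed signals of 4383, 5491 and 3642. Without Cx3cr1 the sums were 2038, 2180.1 and 2272, lower in both MCAO pools, so this order too rests on 1 gene.

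Other tissue is set beside Gabra3. Golgi cell markers, the cells known for alpha3, had medians of -0.01 contralaterally and 0.17 ipsilaterally (4 genes, 0 past the threshold, Sst brightest at 0.34 and 0.25), with summed signals of 6591, 6257 and 5346, and 777, 806 and 761 without Sst. These markers did not share a direction: Sst and Slc6a5 (0.12 and 0.13) were above 0 on both sides, Lgi2 was below 0 on both (-0.14 and -0.38), and Grm2 lay on both sides of 0 (-0.32 and 0.20), the last 3 chosen after their values were seen. The unipolar brush cell list rests on 2 genes, Otx2 and Lmx1a, since Eomes had no match. These were at -0.07 and 0.21 in the median (Otx2 brightest at -0.02 and 0.30), with summed signals of 627, 782 and 643. Whether these 2 genes report unipolar brush cells in this tissue was not tested. Choroid plexus, a tissue that adjoins the cerebellum, moved in the same directions as Gabra3, but these directions were not particular to it. The medians of the Golgi cell and unipolar brush cell lists had the same signs, at smaller size. So had the median of the 2795 detected genes of like signal to Gabra3, at -0.02 contralaterally and 0.13 ipsilaterally. All 5 detected choroid plexus markers were below 0 contralaterally, 4 of 5 were above 0 ipsilaterally, and the medians were -0.67 and 0.66. Ttr, the brightest, was at -1.73 ± 0.20 and 1.19 ± 0.20, the latter within the threshold without scaling (0.66) and with spike-in scaling (0.94). The summed signal was 10205 contralaterally, 76009 ipsilaterally and 33435 in control, and 295, 679.8 and 474 without Ttr, in the same order. The part of choroid plexus in the Gabra3 values was not tested. Of the forebrain markers 3 of 9 were detected, with medians of 0.33 and 0.06 (Ppp1r1b brightest at 0.33 and 0.30) and summed signals of 6575, 6552 and 5446. Without Ppp1r1b the sums were 1343, 1402 and 1271, so the order of the MCAO pools rests on that gene. Nrgn, chosen after its value was seen, was at 1.83 contralaterally and -0.21 ipsilaterally. Of the brainstem and deep nucleus markers 1 of 5 was detected, Slc17a6 at -0.02 and -0.53, Chat and Hoxb5 were well above background on no array, and summed signals were 632, 466 and 631. Without Slc17a6 the sums were 32, 45 and 22, so the low ipsilateral sum rests on that gene. Tph2 of this list, chosen after its value was seen, was well above background on the MCAO arrays but not in control, and was at least 2.11-fold higher contralaterally and at least 2.52-fold higher ipsilaterally.

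Patterns like those of the granule cell subunits were common. Likeness was the Euclidean distance over the 2 log2 ratios to control, among detected genes named by symbol and with a mean signal within 1. Nearest to Gabra6 of 935 genes were Tcp1, Rpl27al8 and Mat2b, at distances of 0.012, 0.020 and 0.020, and 110 genes lay within 0.1. Nearest to Gabrd, the member with the highest contralateral ratio, were Cerk, Rps6 and Rpl35 of 437 genes, at 0.011, 0.013 and 0.013, and 73 genes lay within 0.1. All of these distances are below the scanner error of a ratio, so the order among near genes has no meaning beyond these 3 arrays.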

How the data were processed

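RNA of the 3 groups was labelled with Cy3 and hybridised to 1-colour Agilent rat arrays, which lay on 1 slide. The authors quantified spot intensity with Agilent Feature Extraction 12.1.0.3, and the deposited processed intensity is background-subtracted, on a linear scale and not scaled between arrays. A deposited value table holds the same intensity times 1 factor per array (1.12 contralateral, 1.45 ipsilateral, 1.04 control; medians 139.4, 139.6 and 146.9); the methods speak of normalizing to control samples and do not state if these factors did so. Of 58717 spots that are not controls, 42470 contralateral, 43028 ipsilateral and 43283 control spots were well above background and 0 were saturated; the number of arrays limits the precision.

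Log2 intensities were shifted to a common 75th percentile, 759 outlier spots were left out, and spots, then probes of a gene, were averaged. The files used have no gene name and no mean signal column, so genes were named through the RefSeq table of GRCr8 (17622 of 39957 accessions matched, the rest kept by accession) and normexp ran on median signals. Cadps2, Lypd6 and Eomes had no match. The scanner error was averaged within a gene and array, and combined in quadrature between arrays and genes as if independent. No test was possible with 1 array per group, and no dim genes were left out unless stated.

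Members and lists were chosen with earlier results of these data known. Named genes were the members, other GABA-A subunits, the highest and lowest contralateral ratio of each GABA list, the brightest marker of each list and defining markers not well above background, and the nearest genes by pattern; motifs and genes so marked were chosen after values were seen. Some genes and lists that this rule covers are not reported here. Alternatives were no scaling, median, spike-in (8 probes), quantile and cyclic loess scaling, normexp (offset 50) followed by quantile normalization, a signal raised by 50, use of the deposited values, a filter on dim probes, the brightest probe, outlier spots kept, each member left out, Gabrb2 moved, and subtraction of the median of genes of like signal; cyclic loess and this subtraction were chosen after seeing the data. Promoters were credited to RefSeq. Tables came from Python 3.11.15 (numpy 2.4.6, pandas 2.3.3), figures from matplotlib 3.10.9, and normexp, quantile and cyclic loess values from R 4.3.3 (limma 3.58.1).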

Additional observations from a re-analysis of the deposited data

Results flagged for a closer look

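Gabra3 lay on opposite sides of 0 in the comparisons with control. Its log2 ratio was -0.33 contralaterally and 1.33 ipsilaterally, each beyond its scanner error of 0.25 and 0.23, in pools of the same rats. The contralateral value was within that error with quantile normalization (-0.25), 50 added (-0.12) and normexp (-0.10). The difference of -0.33 from 1.33 was not tested, since each side has 1 array, and both values rest on 1 spot.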

How the results depend on the processing

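No paired analysis was possible because each group has 1 array, although both MCAO pools came from the same rats. The difference between granule cell subunits and others was computed 20 other ways per comparison. Scaling that shifts a whole array leaves it as it is by construction. Contralaterally it stayed above 0 in 20 of 20; it was 0.17 with normexp (followed by quantile normalization throughout) and 0.16 with Gabrb2 moved to the granule cell subunits. Ipsilaterally it was 0.49 without Gabra3 and -0.18 with Gabrb2 moved. Between the sides it was -0.017 with normexp and -0.19 without Gabra3. The other 18 values of each comparison moved by less than the scanner error, among them 0.34 between the sides with Gabrb2 moved. The number of members past the threshold was 0 contralaterally under all 11 alternatives, 0 in place of 1 ipsilaterally without scaling, with normexp and with 50 added, and 0 in place of 1 between the sides with normexp and with 50 added. Normexp and added signal shrink ratios of dim spots by construction; other causes were not tested. Of 231 single log2 ratios, 206 moved by less than the scanner error, and 25 by more: 14 without scaling, 7 with spike-in scaling, 2 with normexp and 2 with 50 added. Signs of small ratios turned contralaterally for Gabra6 and Gabrb1 without scaling and Gabra2 with normexp, ipsilaterally for Gabra6, Gabrd and Gabrb1 without scaling and with spike-in scaling and for Gabrb1 with deposited values, and between the sides for Gabra6 without scaling and with spike-in scaling and Gabra2 with the brightest probe. The median ratio of all genes moved by over 0.1 also between the sides (-0.11) without scaling (0.28) and with spike-in scaling (0.07). Quantile, cyclic loess and normexp moved it too, to -0.01, -0.00 and 0 ipsilaterally and to 0.03, 0.01 and 0.01 between the sides, and 50 added gave 0.03 ipsilaterally. Of all genes, 11.2%, 16.5% and 15.2% were past the threshold (contralateral, ipsilateral, between the sides), against 0.28%, 0.36% and 0.10% with normexp, 0.47%, 0.57% and 0.26% with 50 added and 2.36%, 4.10% and 1.84% for probes well above background. Of all genes past the threshold, the share above 1 was 42.1%, 81.0% and 12.2%, and 31.3%, 43.9% and 29.0% without scaling. Contralaterally most calls were thus lower ones, but 51.1% were higher ones with quantile scaling and 63.1% among probes well above background. The share was 53.6%, 61.2% and 46.2% with normexp; in the last 2 comparisons it was 54.1% and 46.1% with quantile and 63.1% and 27.2% with cyclic loess scaling, 64.1% and 42.2% with 50 added, and 67.0% ipsilaterally with spike-in scaling. Signal over background limits the values of dim spots, Gabra3 among them.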
